A study of Homo sapiens with 3 samples.

Results

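The genes of cholesterol and fatty acid synthesis were examined in LX-2 cells, an established human hepatic stellate cell line, as a list of 34 gene symbols matched by name to the 26108 genes of the deposited expression table. The list holds 8 genes of the mevalonate and prenyl steps, 12 genes of the steps from squalene to cholesterol, 6 genes of the sterol sensing machinery and 8 fatty acid enzymes, listed by name with earlier results of these data known. The study sequenced the mRNA of LX-2 cells given vehicle, of cells given recombinant human FGF19 (rhFGF19, an intestinal hormone that acts on liver bile acid synthesis) at 50 ng/mL, and of cells given rhFGF19 at 100 ng/mL, with 1 library per condition. No genotype or further agent separates the groups, and all 3 libraries come from the same line. The doses follow the sample titles, since the free-text descriptions give the opposite doses and times of 72 and 73 hours, against 24 hours in the series design.

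Cells build cholesterol from acetyl-CoA through mevalonate, which is converted to prenyl diphosphates, then to squalene, and finally through lanosterol to cholesterol. The enzymes share control by the SREBP transcription factors, which SCAP carries out of the endoplasmic reticulum when sterols are low and which INSIG proteins hold back when sterols are high. SREBP-2 acts mainly on the cholesterol genes and SREBP-1 mainly on the genes that make and desaturate fatty acids. Quiescent stellate cells are the vitamin A and lipid storing cells of the liver and lose their lipid droplets on activation.

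Levels are in FPKM, a fragment count divided by transcript length and library total, which can be set side by side between genes. Summed FPKM was 276690 to 302243 over the 3 libraries, and 8890 genes reached 1 FPKM with vehicle against 10925 and 10894 with rhFGF19 at 50 and 100 ng/mL. Read depth is unknown, because FPKM keeps no counts. With 1 library per condition there is no replicate error, so every difference below compares libraries and none carries a test. In bulk RNA, fewer cells of a kind and less RNA per cell cannot be told apart. The stellate genes VIM (439, 654 and 649 FPKM in vehicle, 50 and 100 ng/mL) and COL1A1 (78.3, 108 and 104 FPKM) were high, whereas the stellate genes DES, LRAT and COL1A2 lay at or near 0. TAGLN, a smooth muscle and stellate gene, was lower with rhFGF19 (223, 118 and 126 FPKM), as was THY1 (29.7, 20.6 and 21.1 FPKM), and ACTA2 stood at 8.55, 8.01 and 7.74 FPKM. Of 14 stellate genes, 11 passed the filter on low values, with summed levels of 889, 1130 and 1120 FPKM. Hepatocyte genes summed to 2.63, 3.24 and 2.59 FPKM over 12 genes, most of it ALB, and the 4 listed epithelial genes to at most 0.41 FPKM. Leukocyte genes summed to 53, 47.5 and 43 FPKM over 5 listed genes, most of it CD68, while the defining leukocyte gene PTPRC was not listed.

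All 34 genes were detected, and their levels did not move as 1 block. Fold changes are differences of log2(FPKM + 0.1) over genes that average 0.5 FPKM or more in the 3 libraries, a scale that understates the change of low genes. Past 2-fold higher than vehicle were 15 of the 34 genes at 50 ng/mL (44.1%), beside 39.4% of all 12447 genes tested. At 100 ng/mL the same 15 genes were past 2-fold higher, beside 38.5% of all genes tested. None of the 34 was past 2-fold lower at either dose, beside 1.78% and 1.58% of all genes tested at 50 and 100 ng/mL. The members' share past 2-fold higher is thus near that of the whole transcriptome. By sign, 19 genes lay above and 15 below vehicle in both rhFGF19 libraries, while the sign of the averaged value turned for 8 genes on removal of the GC trend described below, for 7 with the GC content of the longest coding transcript, for 3 on removal of the length trend, for 2 on quantile normalization and for 1 on rescaling to TPM. The members' median log2 fold changes of 0.51 (50 ng/mL) and 0.50 (100 ng/mL) compare with 0.62 and 0.61 over all tested genes, so a gene near 0 sat below the typical gene of these libraries.

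**Figure D1:**
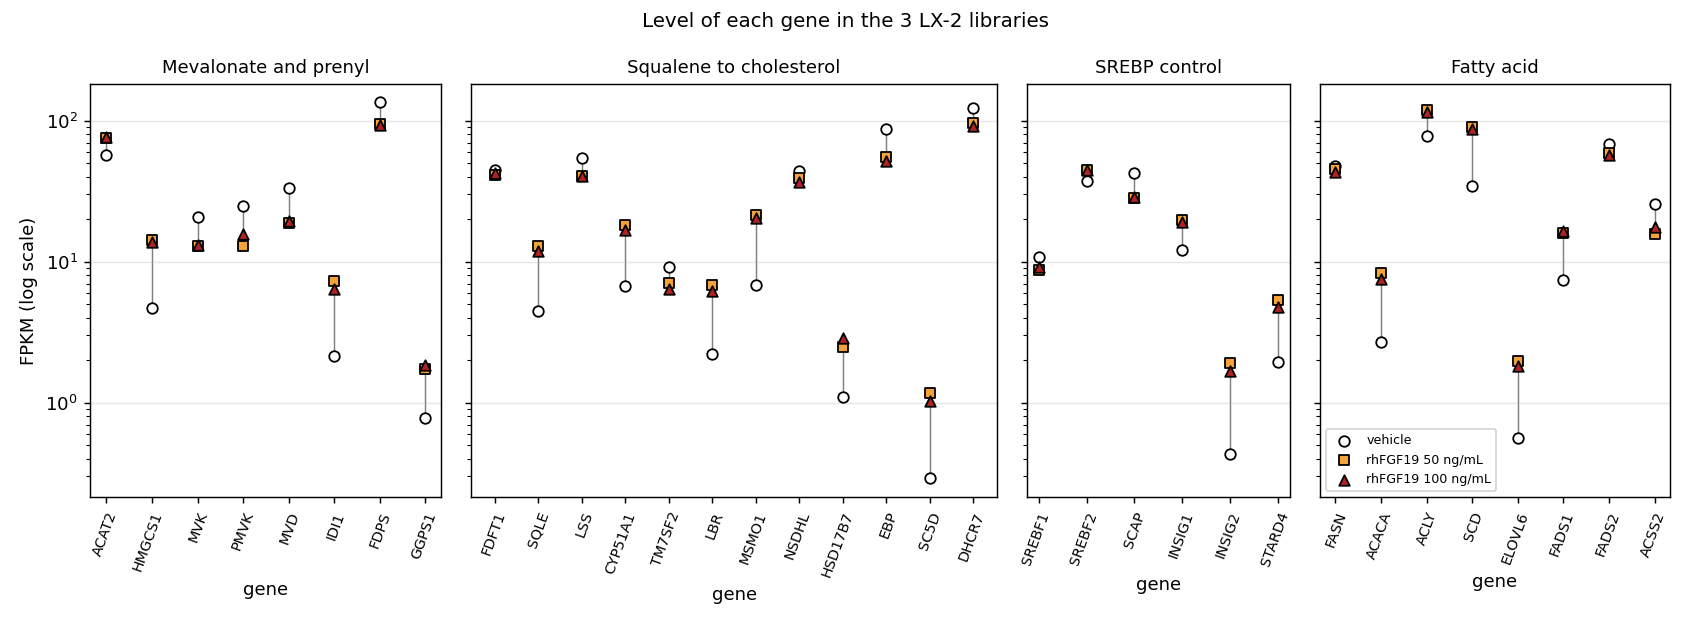
FPKM of each of the 34 genes on a log axis, in 4 panels by role and in pathway order, with 1 point per library (vehicle, rhFGF19 50 ng/mL and rhFGF19 100 ng/mL) joined by a grey line. The 2 treated points lie close together for every gene, and the vehicle point lies below them for 19 genes and above them for 15.

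In the mevalonate and prenyl steps, enzymes next to each other in the route lay on opposite sides of vehicle. ACAT2, which joins acetyl-CoA units, had levels of 57.4, 75.9 and 77 FPKM in vehicle, 50 and 100 ng/mL (log2 fold changes 0.40 and 0.42). HMGCS1, the HMG-CoA synthase, had 4.66, 14.3 and 13.7 FPKM (log2 fold changes 1.60 and 1.54). Both treated libraries were about 3-fold above vehicle for HMGCS1 and close to each other. The 3 enzymes that phosphorylate and decarboxylate mevalonate were all lower with rhFGF19. MVK, the mevalonate kinase, had 20.8, 12.9 and 13.1 FPKM (log2 fold changes -0.68 and -0.66). PMVK, the next kinase, had 25, 12.9 and 15.8 FPKM (log2 fold changes -0.95 and -0.66), and MVD, the decarboxylase, had 33.4, 18.9 and 19.3 FPKM (log2 fold changes -0.81 and -0.79). PMVK and MVD had the lowest averaged log2 fold changes of the 34 genes, and PMVK at 50 ng/mL came nearest to 2-fold lower.

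Further down, the isoprenoid isomerase IDI1 had levels of 2.13, 7.31 and 6.42 FPKM, log2 fold changes of 1.73 and 1.55, the highest of these 8 genes. FDPS, which makes farnesyl diphosphate, was the most abundant member with vehicle at 135 FPKM, and stood at 95.4 and 93.3 FPKM with rhFGF19 (log2 fold changes -0.50 and -0.53). GGPS1, which extends farnesyl to geranylgeranyl diphosphate, rested on low levels of 0.78, 1.72 and 1.85 FPKM (log2 fold changes 1.05 and 1.15). So 3 of the 8 genes were past 2-fold higher at both doses, beside 39.4% and 38.5% of all tested genes. By sign, 4 of the 8 lay above and 4 below vehicle, where 34.5% and 34.2% of all tested genes lay below. The group's median averaged log2 fold change was -0.051, and rescaling to TPM turned it to 0.064.

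From squalene to cholesterol the 12 genes split evenly, 6 past 2-fold higher at both doses and 6 below vehicle at both. Of all tested genes, 39.4% and 38.5% were past 2-fold higher at 50 and 100 ng/mL, and 34.5% and 34.2% below vehicle. FDFT1, the squalene synthase, hardly differed at 44.5, 41.1 and 42.7 FPKM (log2 fold changes -0.11 and -0.059). SQLE, the squalene epoxidase and a rate-limiting step, had 4.49, 12.9 and 12 FPKM (log2 fold changes 1.50 and 1.40). LSS, which closes the lanosterol rings, had 54.6, 40.5 and 40.6 FPKM (log2 fold changes -0.43 and -0.42). These 3 consecutive enzymes thus stood below, above and below vehicle.

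CYP51A1, the lanosterol demethylase, had levels of 6.69, 18.2 and 16.7 FPKM (log2 fold changes 1.43 and 1.31). LBR and TM7SF2 both carry sterol C14-reductase activity, and LBR is also a protein of the inner nuclear membrane. LBR had 2.23, 6.79 and 6.17 FPKM (log2 fold changes 1.56 and 1.43), whereas TM7SF2 had 9.14, 7.07 and 6.41 FPKM (log2 fold changes -0.37 and -0.51). The LBR to TM7SF2 ratio of FPKM was 0.244 with vehicle and 0.96 and 0.963 with rhFGF19, so the reductase pair went from unequal to near equal levels. Transcript GC content was 40.4% for LBR and 62.4% for TM7SF2. After removal of the GC trend described below, their averaged log2 residuals were 0.039 and -0.009.

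The removal of the C4 methyl groups takes MSMO1, NSDHL and HSD17B7 in one complex. MSMO1, the oxidase, had 6.82, 21.4 and 20.5 FPKM (log2 fold changes 1.63 and 1.57). NSDHL, the dehydrogenase, had 44.2, 39.4 and 36.9 FPKM (log2 fold changes -0.17 and -0.26). HSD17B7, the ketoreductase, had 1.09, 2.48 and 2.9 FPKM (log2 fold changes 1.12 and 1.33), and its listed pseudogene HSD17B7P2 had 0.5, 1.33 and 0.93 FPKM, so reads may be split between them. Within this complex NSDHL remained the most abundant, while the MSMO1 to NSDHL ratio went from 0.154 to 0.543 and 0.555. Transcript GC content was 38.1% for MSMO1 and 51.7% for NSDHL. With the GC trend described below removed, their averaged log2 residuals were 0.11 and -0.74.

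Of the last enzymes, the isomerase EBP had levels of 87.9, 55 and 52.2 FPKM (log2 fold changes -0.68 and -0.75). SC5D, the sterol C5-desaturase, was the least abundant of all 34 at 0.29, 1.18 and 1.03 FPKM (log2 fold changes 1.71 and 1.53). DHCR7, which reduces 7-dehydrocholesterol, had 123, 96.9 and 92 FPKM (log2 fold changes -0.34 and -0.42). SC5D, between an abundant isomerase and an abundant reductase, stood at 0.0033 of EBP with vehicle and at 0.0215 and 0.0197 with rhFGF19, still far below both neighbours. Transcript GC content was 38.2% for SC5D and 55.7% for EBP, with averaged log2 residuals from the GC trend of 0.13 and -0.73. The 12 genes had a median averaged log2 fold change of 0.57, which became -0.087 when the filter was raised to a mean of 1 FPKM, a filter that drops SC5D, and -0.035 after removal of the GC trend described below. Taking all 20 sterol steps, 9 were past 2-fold higher, beside 39.4% and 38.5% of all tested genes at 50 and 100 ng/mL. Summed levels of the 20 were 664, 582 and 571 FPKM.

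The sterol sensing genes did not move together either. SREBF1, which encodes SREBP-1, had levels of 10.8, 8.7 and 9.13 FPKM (log2 fold changes -0.31 and -0.24). SREBF2, which encodes SREBP-2, had 37.1, 44.7 and 44.6 FPKM (log2 fold changes 0.27 and 0.27). SCAP, their escort, had 42.5, 28.3 and 28.8 FPKM (log2 fold changes -0.59 and -0.56). All 3 stayed within 2-fold of vehicle, and the SREBF2 to SREBF1 ratio was 3.43, 5.14 and 4.89. Transcript GC content was 57.1% for SREBF2 and 63.6% for SREBF1. With the GC trend described below removed, their averaged log2 residuals were 0.39 and 0.19. INSIG1, itself a target of SREBP, had 12.2, 19.9 and 19 FPKM (log2 fold changes 0.70 and 0.64). INSIG2 had 0.43, 1.9 and 1.68 FPKM (log2 fold changes 1.92 and 1.75), the highest log2 fold changes of the 34 genes on one of their lowest levels. INSIG1 remained the more abundant of the pair, at 28.4 times INSIG2 with vehicle and 10.5 and 11.3 times with rhFGF19. Transcript GC content was 46.4% for INSIG1 and 37.2% for INSIG2, with averaged log2 residuals from the GC trend of -0.47 and 0.32. STARD4, a carrier of cholesterol between membranes, had 1.95, 5.37 and 4.74 FPKM (log2 fold changes 1.42 and 1.24). Of the 6 genes, 2 were past 2-fold higher at both doses, beside 39.4% and 38.5% of all tested genes. The median averaged log2 fold change of the 6 was 0.47, beside 0.62 over all tested genes.

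The fatty acid enzymes had the highest group median, an averaged log2 fold change of 0.87 beside 0.62 over all tested genes. At both doses 4 of the 8 genes were past 2-fold higher, beside 39.4% and 38.5% of all tested genes. ACLY, which splits citrate into acetyl-CoA, had levels of 77.7, 120 and 116 FPKM (log2 fold changes 0.62 and 0.58). ACSS2, which makes acetyl-CoA from acetate, had 25.6, 15.8 and 17.6 FPKM (log2 fold changes -0.69 and -0.54). The 2 sources of cytosolic acetyl-CoA thus lay on opposite sides of vehicle. ACACA, the acetyl-CoA carboxylase that commits carbon to fatty acids, had 2.68, 8.29 and 7.56 FPKM (log2 fold changes 1.59 and 1.46). FASN, the fatty acid synthase, had 48, 45.6 and 43 FPKM (log2 fold changes -0.074 and -0.16). FASN was therefore 17.9 times ACACA with vehicle and 5.5 and 5.68 times with rhFGF19. Transcript GC content was 66.6% for FASN and 48.3% for ACACA. With the GC trend described below removed, their averaged log2 residuals were 0.43 and 0.58.

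SCD, which puts the first double bond into saturated fatty acids, had levels of 34.3, 91 and 88 FPKM (log2 fold changes 1.40 and 1.36). It had the highest vehicle level of the 15 genes past 2-fold, and the SCD to FASN ratio went from 0.715 to 2 and 2.05. Transcript GC content was 47.1% for SCD and 66.6% for FASN. With the GC trend described below removed, their averaged log2 residuals were 0.30 and 0.43. ELOVL6, the elongase of saturated chains, had 0.56, 1.99 and 1.82 FPKM (log2 fold changes 1.66 and 1.54). FADS1, the delta-5 desaturase of polyunsaturated fatty acids, had 7.38, 16.1 and 16.5 FPKM (log2 fold changes 1.11 and 1.15), whereas FADS2, the delta-6 desaturase, had 69, 59.1 and 57.2 FPKM (log2 fold changes -0.22 and -0.27). Summed over the 8 genes, levels were 265, 358 and 348 FPKM, with the widest gaps from vehicle at SCD and ACLY.

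FADS1 and FADS2 need care, because the listed span of FADS1 (chr11:61799627-61829318, minus strand) lies wholly within that of FADS2 (chr11:61792980-61867354, plus strand). FEN1, a DNA repair nuclease at 139 FPKM at 100 ng/mL, is listed on the strand of FADS2 within it. In all, 16 of the 34 genes overlap another listed gene, and whether counting used strand is not given in the sources used here, so reads of such partners may be mixed. Among the other overlaps with a partner above 5 FPKM are ACAT2 with TCP1 (24.9 FPKM at 100 ng/mL), ACSS2 with GGT7 (18.2 FPKM), SREBF1 with RAI1 (8.94 FPKM) and MVK with MMAB (7.67 FPKM).

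The 2 rhFGF19 libraries were nearly alike for these genes. None of the 34 was past 2-fold apart between 100 and 50 ng/mL, beside 1.74% of all genes tested. The widest gap was that of PMVK, a log2 difference of 0.29, and the median absolute difference was 0.075 against 0.089 for all tested genes. Both comparisons with vehicle use the same vehicle library, so the like values at both doses do not count as a repeat of the difference from vehicle.

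Genes past 2-fold higher and genes below vehicle differed in level and in base composition. The 15 genes past 2-fold had vehicle levels of 0.29 to 34.3 FPKM with a median of 2.23, whereas the 15 genes below vehicle had 9.14 to 135 FPKM with a median of 44.2. The same vehicle library enters the fold change, so part of this contrast in level may follow from how the sets were defined. Transcript GC content, the median over a gene's GENCODE v29 transcripts, had a median of 41.8% in the genes past 2-fold and 58.3% in those below vehicle. Across the 34 genes, the averaged log2 fold change and GC content had a Pearson r of -0.869 and a Spearman rho of -0.849, where the genes share the same 3 libraries and are not independent replicates. Over the 12397 tested genes with a known GC content the Spearman rho was -0.776, so the relation was also present over the whole table. Below 50% GC, 14 of 16 members were past 2-fold higher in both rhFGF19 libraries, beside 70.1% of all tested genes below 50% GC. At 50% GC or more, 1 of 18 members was (FADS1), beside 7.66% of such genes. The log2 difference between 100 and 50 ng/mL had a Spearman rho with GC content of 0.489 over the members and 0.0674 over all genes.

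The contrast in composition can be read in the coding sequences. The middle 90 coding bases of the longest coding transcript in GENCODE v29 (GRCh38) are printed for 5 members with G and C in capitals, picked after their values were seen: INSIG2 (chr2:118088452-118110997, plus strand) and IDI1 (chr10:1039152-1049170, minus strand) for high fold changes, MVD (chr16:88651935-88663161, minus strand) for a low one, FASN (chr17:82078338-82098294, minus strand) for the highest GC content, and FADS1 for standing apart from its GC content. All 5 stretches are exonic and coding.
INSIG2: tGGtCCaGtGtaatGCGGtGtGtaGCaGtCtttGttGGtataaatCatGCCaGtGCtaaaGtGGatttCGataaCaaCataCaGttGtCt
IDI1: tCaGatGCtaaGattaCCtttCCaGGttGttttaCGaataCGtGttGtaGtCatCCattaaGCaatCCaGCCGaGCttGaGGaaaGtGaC
MVD: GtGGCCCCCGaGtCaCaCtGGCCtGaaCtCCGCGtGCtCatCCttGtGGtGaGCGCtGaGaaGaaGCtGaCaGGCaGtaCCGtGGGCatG
FASN: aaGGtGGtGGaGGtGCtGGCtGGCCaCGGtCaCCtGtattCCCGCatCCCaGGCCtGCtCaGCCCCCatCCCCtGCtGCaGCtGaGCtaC
FADS1: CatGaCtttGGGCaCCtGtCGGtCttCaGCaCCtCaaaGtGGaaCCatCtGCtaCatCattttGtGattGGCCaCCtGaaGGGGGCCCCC
G and C make up 37 of the 90 bases in INSIG2, 38 in IDI1, 56 in MVD, 59 in FASN and 49 in FADS1. In like stretches that are not printed, they make up 37 bases in SC5D, which had a high fold change. Among members with low fold changes, they make up 52 in PMVK and 47 in EBP, the latter fewer than in FADS1.

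A loess curve of log2 fold change on GC content over all tested genes gives the value usual for a gene of that composition, and each member can be set against it. With that trend removed, FADS1 alone of the 34 members was past 2-fold higher, at a log2 residual of 1.16, beside 3.41% of all tested genes, and none was past 2-fold lower, beside 4.59%. FADS1's averaged log2 fold change of 1.13 compares with a median of -0.059 over the 885 genes within 1 percentage point of its GC content, 94.7% of which lay below it. For FADS2, of the same GC content of 56.1%, the log2 residual was -0.23. The FADS1 call depends on the transcripts used, since with the longest coding transcript no member stayed past 2-fold higher. Of the 34 members, 26 lay within 0.5 of 0, beside 70.1% of all tested genes.

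By role, the median residual was above 0 for the fatty acid enzymes and below 0 for the mevalonate steps, with exceptions in both. Median log2 residuals were 0.32 for the fatty acid enzymes (6 of 8 above 0), -0.33 for the mevalonate and prenyl steps (2 of 8), -0.035 for squalene to cholesterol (4 of 12) and 0.033 for the sterol sensing genes (3 of 6). ACSS2 (-0.72) and FADS2 (-0.23) lay below the trend among the fatty acid enzymes, and IDI1 (0.25) and HMGCS1 (0.15) above it among the mevalonate steps. All sterol steps together had 6 of 20 above the trend, beside 6236 of the 12397 tested genes with a known GC content. The median over all tested genes was 0.0032, and with the GC content of the longest coding transcript the first pair of medians was 0.25 and -0.33. After FADS1 the highest log2 residuals were those of ACACA at 0.58, FASN at 0.43 and SREBF2 at 0.39. The lowest belonged to FDFT1 at -0.90, FDPS at -0.76, NSDHL at -0.74 and EBP at -0.73. FDFT1, FDPS and NSDHL were within 2-fold of vehicle as deposited, with averaged log2 fold changes of -0.087, -0.51 and -0.21, where the trend stood at 0.81, 0.24 and 0.53 for their GC contents. Conversely, the residuals of SQLE (-0.0059), CYP51A1 (-0.061), STARD4 (-0.12) and GGPS1 (-0.25), all past 2-fold higher as deposited, lay below 0, as did those of ACAT2 (-0.33) and INSIG1 (-0.47), which stood above vehicle as deposited. Whether GC content or rhFGF19 set the differences was not tested, and with 1 vehicle library the condition and the library cannot be told apart.

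Promoters of these genes are known for sites of SREBP and of its partners NF-Y and Sp1. RefSeq windows of GRCh38.p14 from 250 bases before to 50 after the start were found for 30 of the 34 genes, 43 windows in all, and were searched on both strands. No window was found for ACAT2, FASN, FDFT1 and SQLE, so their promoters were not searched. The sterol regulatory element was searched as TCACNCCAC and found in 1 member window, that of SREBF2, or 2.33% against 1.13% of all 35116 windows. Only exact matches to these letters were counted, so sites that differ from them were missed. The NF-Y box CCAAT was in 60.5% of member windows against 34.6% of all, and the GC box GGGCGG, bound by Sp1, in 86% against 45%. For the E-box CACGTG the shares were 11.6% and 7.26%. The full set of windows was not limited to genes expressed here and was not matched to the member windows for GC content. By gene, the NF-Y box was in 12 of 17 members above vehicle and in 10 of 13 members below it, so the box was found on both sides of vehicle. A match is a description of letters and not a bound site.

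The SREBF2 stretch (chr22:41832932-41833020, plus strand), upstream of the start, is printed with its match to the sterol regulatory element in capitals, which begins at position -133 from the start.
SREBF2: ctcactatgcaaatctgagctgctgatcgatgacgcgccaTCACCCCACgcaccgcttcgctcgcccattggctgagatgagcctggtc
Positions -160 to -30 from the start are printed for the 2 members above vehicle (MSMO1, chr4:165327509-165327639, plus strand, and HSD17B7, chr1:162790542-162790672, plus strand) and the 2 below vehicle (EBP, chrX:48521648-48521778, plus strand, and TM7SF2, chr11:65111712-65111842, plus strand) with the most NF-Y boxes among windows where these positions lie outside the listed gene, ties taken by name, with whole boxes on either strand in capitals.
MSMO1: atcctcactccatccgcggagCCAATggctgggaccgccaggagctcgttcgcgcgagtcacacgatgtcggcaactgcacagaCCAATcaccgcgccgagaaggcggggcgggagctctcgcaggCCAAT
HSD17B7: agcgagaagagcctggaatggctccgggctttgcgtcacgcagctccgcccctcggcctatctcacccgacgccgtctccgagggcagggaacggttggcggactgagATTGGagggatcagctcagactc
EBP: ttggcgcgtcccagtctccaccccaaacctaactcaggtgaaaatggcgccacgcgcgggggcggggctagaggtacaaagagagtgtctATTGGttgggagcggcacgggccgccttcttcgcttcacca
TM7SF2: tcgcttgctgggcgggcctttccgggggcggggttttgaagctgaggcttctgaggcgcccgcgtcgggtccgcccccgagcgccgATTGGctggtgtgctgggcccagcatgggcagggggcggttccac
MSMO1 holds 3 boxes and each of the others holds 1.

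Genes next to the pathway were also described, from lists made with earlier results of these data known. Of 12 genes that process SREBP or turn over its regulators, 9 were past 2-fold higher at each dose, beside 39.4% and 38.5% of all tested genes. The list's median averaged log2 fold change was 1.30 against 0.62 over all tested genes, and its median transcript GC content was 44.9%. Of all tested genes below 50% GC, 70.1% were past 2-fold higher in both rhFGF19 libraries. SEC23A, a coat protein of vesicles leaving the endoplasmic reticulum, had levels of 2.37, 8.37 and 8.05 FPKM, and RNF139, a ubiquitin ligase, had 0.99, 3.17 and 3.42 FPKM. Both were more than 3-fold above vehicle in each rhFGF19 library. With the GC trend removed, the list's median log2 residual was 0.083 and none of the 12 was past 2-fold.

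Of 15 tested genes of sterol storage, transport and efflux, 3 were past 2-fold higher at the lower dose and 4 at the higher, beside 39.4% and 38.5% of all tested genes, with a median averaged log2 fold change of 0.0077 against 0.62. Median transcript GC content of this list was 54.2%, and with the GC trend removed its median log2 residual was -0.0014. SOAT1, which esterifies cholesterol for storage, had levels of 0.94, 3.3 and 2.86 FPKM, and OSBP, an oxysterol binding protein, had 4.68, 13.6 and 14.1 FPKM. NR1H2, the sterol receptor LXR-beta, had 31.1, 22.7 and 21.1 FPKM, and GRAMD1A, a sterol carrier, had 14.1, 9.56 and 9.19 FPKM. The isoprenoid branch had 6 of 13 genes past 2-fold higher at 50 ng/mL and 5 at 100 ng/mL, beside the same shares of all tested genes, with a median of 0.86. Its median transcript GC content was 48.2%, and with the GC trend removed its median log2 residual was -0.058. RABGGTB and RABGGTA, the subunits of Rab geranylgeranyl transferase, lay on opposite sides, at 0.61, 3.44 and 3.24 FPKM and at 11, 7.25 and 6.98 FPKM. Their transcript GC contents were 38.7% and 60%.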

How the data were processed

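Paired-end sequencing of poly(A) RNA gave 1 library each for LX-2 cells with vehicle, with 50 ng/mL rhFGF19 and with 100 ng/mL rhFGF19. The authors deposited FPKM values for 26108 genes, with 2 decimals. The submitters' processing notes name HISAT2 2.0, StringTie 1.3.0 and Bowtie 0.12.2 and the builds hg19 and mm8, with no roles, and the library protocol in the labels speaks of an adipose sample. The listed coordinates overlapped GRCh38 (GENCODE v29) for 99.7% of the 25531 genes found there and for all 34 members. FPKM depends on library total and length and keeps no counts, so depth is unknown.

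From these FPKM values, log2(FPKM + 0.1) was subtracted between libraries over the 12447 genes averaging 0.5 FPKM or more, and genes past 2-fold were counted, the criterion of the study. Averaged values are means of both rhFGF19 differences from vehicle. No p-value was computed. GC content was the median over a gene's GENCODE transcripts, known for 99.6% of tested genes, and its trend was removed by loess (span 0.3, statsmodels 0.14.6). Python 3.11.15, NumPy 2.4.6, pandas 2.3.3, SciPy 1.17.1 and matplotlib 3.10.9 were used, and the calculations were tested on simulated data. The members and the lists of related and marker genes were chosen with earlier results of these data known. All members are named, and genes named from a related list were taken from its 2 highest and 2 lowest, not all of which are reported here. The alternatives were pseudocounts of 0.01 and 1, no filter, a mean of at least 1 FPKM, median scaling, TPM, quantile normalization, and removal of the GC or length trend. A trend on the GC content of the longest coding transcript was added after seeing the data.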

Additional observations from a re-analysis of the deposited data

How the results depend on the processing

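A single library per condition leaves out any replicate error, and no depth was known, so values under 1 FPKM such as those of SC5D, INSIG2, ELOVL6 and GGPS1 with vehicle are the least certain. No paired analysis was possible because each condition has 1 library. As reported, 15 members were past 2-fold higher at each dose, none was lower or apart between doses, and the group medians were -0.051 (mevalonate), 0.57 (squalene to cholesterol), 0.47 (sterol sensing) and 0.87 (fatty acid). With a pseudocount of 1, 9 members were past 2-fold higher at 100 ng/mL, and the medians of squalene to cholesterol and fatty acid were 0.31 and 0.75. With a filter at a mean of 1 FPKM, which drops 1 member, the squalene to cholesterol median turned to -0.087. The median ratio to vehicle was also set to 0, taken over genes at 1 FPKM or more in every library and not over all tested genes. Then 2 members at 50 ng/mL and 1 at 100 ng/mL were past 2-fold lower, and the 4 medians were -0.27, 0.35, 0.25 and 0.64. Rescaled to TPM, they were 0.064 (mevalonate, turned), 0.71, 0.59 and 0.98. Quantile normalization left 7 and 3 members past 2-fold higher, with medians of 0.23 for squalene to cholesterol and 0.79 for fatty acid. Removing the GC trend left 1 member past 2-fold higher at each dose, with medians of -0.33, -0.035 (turned), 0.033 and 0.32, and turned 8 members, CYP51A1 (-0.061), SQLE (-0.0059), GGPS1 (-0.25), STARD4 (-0.12), ACAT2 (-0.33) and INSIG1 (-0.47) below 0 and SREBF1 (0.19) and FASN (0.43) above 0. Removing the trend on the longest coding transcript, added after seeing the data, left 0 past 2-fold higher at each dose and 1 past 2-fold lower at 100 ng/mL, with medians of -0.33, -0.036 (turned), 0.17 and 0.25, and turned 7 members, CYP51A1 (-0.035), GGPS1 (-0.34), ACAT2 (-0.32) and INSIG1 (-0.49) below 0 and SREBF1 (0.22), FASN (0.40) and FADS2 (0.091) above 0. Removing the length trend put 10 and 6 members past 2-fold higher and 7 at each dose past 2-fold lower, with medians of -0.49, 0.07, 0.058 and 0.14. The averaged median of all tested genes, 0.62 as reported, was 0.34 without a filter, 0.52 with the filter at 1 FPKM, 0.41 with a pseudocount of 1, 0.40 with the median ratio set to 0, 0.76 in TPM and 0.10 after quantile normalization. The cause of these shifts was not tested.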

Other observations

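Lists of genes that use fatty acids held genes on both sides of vehicle. Of 20 tested genes of fatty acid elongation and activation, 11 were past 2-fold higher at the lower dose and 12 at the higher, beside 39.4% and 38.5% of all tested genes, with a median averaged log2 fold change of 1.23 beside 0.62 for all tested genes. Median transcript GC content of this list was 45.6%, and with the GC trend removed its median log2 residual was 0.052. HACD2, a dehydratase of the elongation cycle, had levels of 1.38, 4.77 and 4.98 FPKM in vehicle, 50 and 100 ng/mL, and ACSL4, which activates arachidonic acid, had 2.15, 7.53 and 7.4 FPKM. TECR, the reductase of the same elongation cycle, had 51.8, 31.3 and 32.5 FPKM, and SLC25A1, the mitochondrial citrate carrier, had 190, 111 and 115 FPKM. The former pair had transcript GC contents of 43.8% and 43.4% and the latter of 61.2% and 65.6%.

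Of 13 genes of triglyceride synthesis and lipid droplets, 4 were past 2-fold higher at each dose, beside 39.4% and 38.5% of all tested genes. At each dose 8 of the 13 lay below vehicle, beside 34.5% and 34.2% of all tested genes. The median averaged log2 fold change of the list was -0.32, beside 0.62 for all tested genes. Its median transcript GC content was 56.9%, and with the GC trend removed its median log2 residual was 0.032. GPAM, the mitochondrial glycerol-3-phosphate acyltransferase, had levels of 0.22, 1.04 and 1.04 FPKM, and LPIN2, a phosphatidate phosphatase, had 2.98, 7.93 and 8.31 FPKM. AGPAT2, the acyltransferase between these steps, had 97.9, 50.4 and 52 FPKM, and DGAT1, which makes the triglyceride, had 9.57, 5.01 and 6.61 FPKM. These 4 were named as the highest and lowest of the list.

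Of 15 tested genes of fatty acid oxidation, 8 were past 2-fold higher at each dose, beside 39.4% and 38.5% of all tested genes, and ACADS was past 2-fold lower at 50 ng/mL (log2 fold change -1.03). The list's median averaged log2 fold change was 1.11, beside 0.62 for all tested genes. Its median transcript GC content was 49%, and with the GC trend removed its median log2 residual was -0.13. The medium-chain dehydrogenase ACADM had levels of 0.63, 1.95 and 1.56 FPKM, while the short-chain dehydrogenase ACADS had 31.2, 15.2 and 15.6 FPKM. Their transcript GC contents were 40.5% and 64.6%, and their log2 residuals from the GC trend were -0.12 and -0.52.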
